A study of Mus musculus with 11 samples.

Results

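The fibrillar collagens are the chains that assemble into the cross-banded fibrils of connective tissue. The 10 genes described here, Col1a1, Col1a2, Col2a1, Col3a1, Col5a1, Col5a2, Col5a3, Col11a1, Col11a2 and Col27a1, are the family members listed by name and found by gene identifier among the 54232 genes of the deposited count table.

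The data are bulk RNA-seq of 11 orthotopic pancreatic tumours, 6 from KO mice (replicates A to F) and 5 from WT mice (A to E). Every host was an adult, age-matched C57BL/6 female that carried the tamoxifen-inducible Cre recombinase CreERT2 at the Rosa26 locus and had received tamoxifen. KO hosts were homozygous for floxed Pkn2, so that protein kinase N2 was deleted in host cells, and WT littermates had intact Pkn2. All mice were implanted in the pancreas with 1000 TB32048 carcinoma cells, a line from a female mouse of the KPC pancreatic cancer model, in which PKN2 was intact. Rosa26 is active in most cell types, so the deletion was not limited to fibroblasts. Pkn2 itself did not separate the groups: it was 80.0 to 108 CPM (counts scaled to a common library size) in KO and 62.8 to 138 CPM in WT tumours, with a mean of 96.5 CPM in each (log2 fold change -0.00, SE 0.21, adjusted p = 0.996 by edgeR). These counts cover the whole gene and include the implanted cells, so they do not check the genotype, and how much of them came from carcinoma cells was not tested.

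Fibrillar procollagens are secreted as triple helices, trimmed by propeptidases and laid into fibrils outside the cell. Type I collagen is a heteromer of Col1a1 and Col1a2 chains, type III is a homotrimer of Col3a1 that copolymerises with it, and type V (Col5a1, Col5a2, Col5a3) sits inside the fibril, starts its assembly and limits its width. Types II and XI (Col2a1, Col11a1, Col11a2) belong chiefly to cartilage, although Col11a1 is also known from activated fibroblasts of carcinomas, and Col27a1 is a distant member best known from cartilage. In pancreatic tumours the main source of these chains is the fibroblast and stellate cell compartment.

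Libraries held 16294128 to 31121422 counts. Before any result, 4 of the 5 WT libraries need a remark. In WT A, B and C, genes with long transcripts were low relative to the other tumours. The Spearman rho of each gene's deviation with transcript length was -0.585, -0.553 and -0.202, against 0.157 to 0.452 in the other 8. Ribosomal RNA took 6.39% of WT B against 0.241% to 1.40% elsewhere. WT E had the highest level among WT tumours of 7 of the 9 chains tested, all but Col11a2 and Col27a1. The main differences of the chains, their ratios and the pathway lists are given below with all tumours and without WT E or WT A, B and C.

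The chains share a regulatory sequence that played no part in choosing them. The microRNAs of the miR-29 family, known repressors of collagen genes, have a common seed, shown in capitals (bases 2 to 8; RefSeq, GRCm38.p6).
mmu-miR-29a-3p: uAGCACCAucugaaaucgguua
mmu-miR-29b-3p: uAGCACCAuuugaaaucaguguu
mmu-miR-29c-3p: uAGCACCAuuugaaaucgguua

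The match to this seed (TGGTGCT on the transcript strand) was searched in the 3′ UTR of the longest coding transcript of each gene in GENCODE M21 (GRCm38). It occurred in 8 of the 10 chains, all but Col1a2 and Col11a2, and in 15.0% of 14114 protein-coding genes tested. Among genes with a 3′ UTR as long as those of the chains the share was 12.6%. Col5a1 held 4 matches in 2498 bases, Col5a3 held 3 in 785, Col11a1 held 2 in 1891, and the other 5 held 1 each. The sites below are 30 bases of 3′ UTR from the major chains and from those that differed most from them, with the seed match in capitals, so that the length and spacing of the matches can be compared.
Col1a1 (chr11:94952527-94952556, + strand): gaaggaatttcTGGTGCTatagaagctgag
Col3a1 (chr1:45348971-45349000, + strand): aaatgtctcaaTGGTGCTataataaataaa
Col5a1, site 1 (chr2:28037993-28038022, + strand): ctatgaacattTGGTGCTgaattttttaca
Col5a1, site 2 (chr2:28038023-28038052, + strand): cttgtctcttgTGGTGCTatgtgtccggag
Col5a1, site 3 (chr2:28038339-28038368, + strand): ctgaatgtttgTGGTGCTaatctctgtgtg
Col5a1, site 4 (chr2:28038711-28038740, + strand): gagagtcactcTGGTGCTtgtgtccccacc
Col5a2 (chr1:45374954-45374983, - strand): tcttttaatgaTGGTGCTaaaattatttct
Col11a1, site 1 (chr3:114219072-114219101, + strand): ttggatttcgtTGGTGCTgtagaaaacaaa
Col27a1 (chr4:63333909-63333938, + strand): tgtgaaatcgcTGGTGCTcacaattgtctc

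In Col1a1, Col3a1 and Col5a2, and at sites 2 and 3 of Col5a1, the match was followed by A, which makes the longer form of site, whereas Col11a1 and Col27a1 held only the shorter form. A match is a description of the sequence. The mature microRNAs are not measured by these libraries, in which the 4 Mir29 genes had 0 or 1 count, and the part of miR-29 in any value below was not tested.

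Levels of different chains can be compared only per length, and the order of the chains was then steep. Per kilobase of the longest coding transcript, Col3a1 was highest, at a mean of 379.8 CPM per kb over the 11 tumours (SD 199), followed by Col1a2 at 301.3 (SD 128) and Col1a1 at 258.2 (SD 120). Col3a1 was above Col1a2 in 10 of 11 tumours, and Col1a2 above Col1a1 in 11 of 11. The type V chains were lower: Col5a2 reached 20.1% of the Col1a1 level, Col5a1 10.8% and Col5a3 2.89%. Col27a1 stood between them, at 4.47%, above Col5a3 in 8 of 11 tumours and below Col5a1 in 9. Col11a1 and Col11a2 were at 0.300% and 0.168% of the Col1a1 level, and their order was not settled, Col11a1 being higher in 8 of 11 tumours.

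The length used changed the order of the 3 major chains. Per kilobase of the union of all annotated exons, Col1a1 was highest at 233 CPM per kb (SD 108), above Col3a1 at 215 (SD 113) in 9 of 11 tumours, and Col1a2 was lowest of the 3 at 130 (SD 55.2). Col27a1 and Col5a3 were then at 2.89% and 2.88% of the Col1a1 level, Col27a1 being the higher in 5 of 11 tumours. The ratio of Col1a1 to Col1a2 per length was 0.844 ± 0.0441 (SD, n = 11) with the longest coding transcript and 1.77 ± 0.0925 with the union of all annotated exons, because the Col1a2 annotation includes much exon sequence outside that transcript. The order of the major chains is thus not fixed by these counts. The ratio of the type I pair varied little between tumours on either scale.

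**Figure D1:**
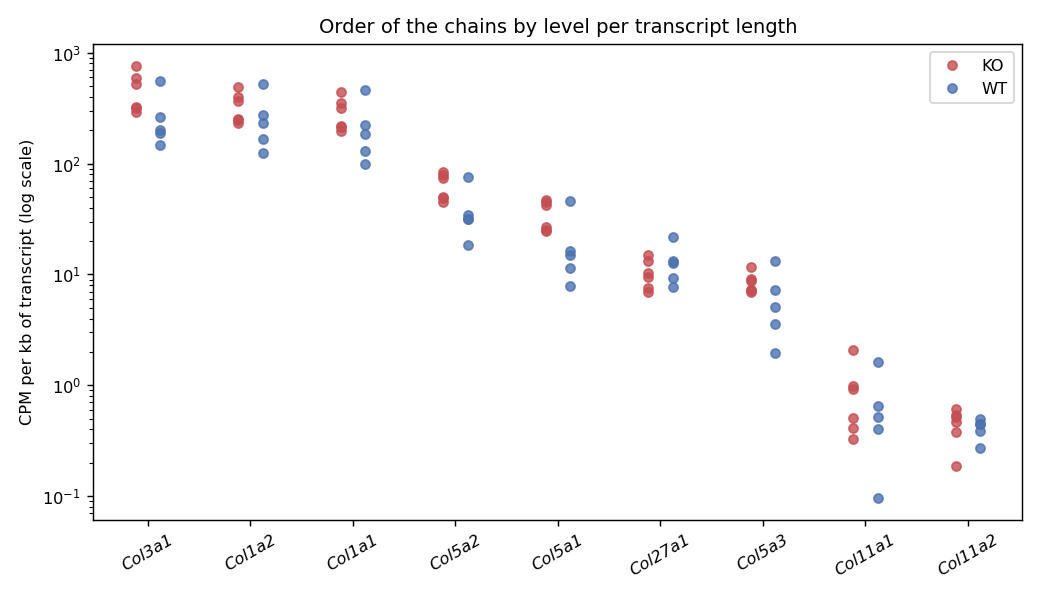
Level of each chain in CPM per kb of the longest coding transcript (vertical axis, log scale) for the 6 KO and 5 WT tumours, 1 point a tumour, ordered by the mean over all tumours. Col3a1, Col1a2 and Col1a1 lie above 99 CPM per kb in every tumour, and Col11a1 and Col11a2 lie near or below 2. Col2a1 is not drawn.

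Col2a1, the chain of type II collagen and the signature product of chondrocytes, was at the floor. Its counts were 1 in KO D, 2 in KO F, 1 in WT A and 0 in the other 8 tumours, at or below the limit of 3 counts that a count of 0 allows (0.0964 to 0.184 CPM, counting error only). No fold change is given for it. Of 11 cartilage markers, Col9a1 had no count in any tumour and Snorc at most 1, while Acan, which carcinoma stroma can also express, averaged 59.8 CPM in KO against 45.6 CPM in WT. Of the 6 cartilage markers tested, 3 had a higher fitted level in KO, at a median log2 fold change of -0.23. The higher ones were Acan, Sox5 (1.75 CPM in KO, 1.03 CPM in WT) and Comp (2.28 and 0.654 CPM). Comp had the smallest p of the list (log2 fold change 1.75, adjusted p = 0.0852 by edgeR). The lower ones were Sox9 (48.7 CPM in KO, 87.2 CPM in WT), Sox6 (0.557 and 1.89 CPM) and Col10a1 (0.929 and 2.30 CPM). Among those not tested, Hapln1 averaged 0.380 and 1.22 CPM and Matn3 0.230 and 0.101 CPM, and Matn1 had at most 4 counts. The summed cartilage markers ranged from 68.2 to 165 CPM in KO and from 59.1 to 282 CPM in WT tumours. Of 5 bone markers, Bglap had at most 6 counts, Ibsp at most 4 and Sp7 at most 16 (0.243 CPM in KO, 0.0711 CPM in WT). Alpl averaged 3.47 CPM in KO and 2.13 CPM in WT. Runx2, a transcription factor of osteoblasts that other cells also express, averaged 34.6 CPM in KO against 30.2 CPM in WT, and the summed bone markers ran from 30.7 to 45.3 CPM in KO and from 24.9 to 47.5 CPM in WT tumours.

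The comparison of KO with WT tumours asks whether the fibrillar collagen transcripts of a tumour differ when host cells lack PKN2. Of the 9 chains tested, 8 had a higher fitted level in KO than in WT tumours and 1, Col27a1, a lower one, but none passed the test (edgeR quasi-likelihood, Benjamini-Hochberg adjusted p under 0.05 over 16536 genes). The background was low as well, 0.0181% of all genes tested. At an unadjusted p under 0.05 the test gave 1 of 9, Col5a2, against 24.0% of all genes and 8.57% of all genes in that direction. DESeq2 also called 0 chains, against 5.06% of genes, and put 3 at an unadjusted p under 0.05, against 16.5%. The median log2 fold change of the 9 chains was 0.41, beside -0.03 over all genes. In each of the 9 the KO and WT tumours overlapped, whereas 3.57% of all genes had no overlap and 1.59% had every KO tumour above every WT tumour.

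The nearest to the threshold were the 2 main type V chains and type III. Col5a1, the obligatory chain of type V, was at 223, 210.0, 354, 396, 207 and 382 CPM in KO A to F and at 66.1, 125, 136, 95.9 and 385 CPM in WT A to E. Every KO tumour was above WT A to D, and WT E lay among the highest KO tumours. How many of all genes have this split was not tested, so here and below it is a description of the values. Its log2 fold change was 0.87 (SE 0.40, adjusted p = 0.209 by edgeR), from a mean of 295 ± 90.8 CPM (SD, n = 6) in KO to 162 ± 128 CPM (n = 5) in WT tumours.

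Col5a2, the partner chain, had 322, 298, 518, 489, 329 and 560 CPM in KO A to F. In WT A to E it had 122, 208, 226, 211 and 503 CPM. The pattern was again that of 6 KO tumours above WT A to D and 1 WT tumour, E, within the KO range, and the log2 fold change was 0.72 (SE 0.32, adjusted p = 0.197).

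Col3a1, the type III chain, had 1802, 1775, 4258, 2908, 1628 and 3290 CPM in KO A to F and 821, 1478, 1117, 1052 and 3116 CPM in WT A to E. The split was the same as for type V, although WT B came close to the lowest KO tumour, E. Its log2 fold change was 0.78 (SE 0.38, adjusted p = 0.228). Col3a1 lies beside Col5a2 on chromosome 1 (45311538 to 45349706, + strand, and 45374321 to 45503282, - strand, GRCm38), with 24614 bases between them.

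The type I chains differed less. Col1a1 had 1276, 1298, 2104, 1896, 1155 and 2620 CPM in KO A to F and 590, 1088, 1310, 772 and 2733 CPM in WT A to E. WT C exceeded KO A, B and E, so that only 3 KO tumours were above WT A to D, and the highest value of all was that of WT E. The log2 fold change was 0.41 (SE 0.38, adjusted p = 0.521) for Col1a1 and 0.33 (SE 0.35, adjusted p = 0.587) for Col1a2, whose values ran from 1253 to 2636 CPM (median 1655) in KO and from 661 to 2803 CPM (median 1251) in WT tumours.

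Among the minor chains the groups overlapped, least in Col5a3, the third type V chain. It ran from 42.9 to 72.1 CPM (median 48.8) in KO and from 12.1 to 81.6 CPM (median 31.0) in WT tumours. All 6 KO tumours were above the WT median, and only WT C lay within the KO range. The fitted Col5a3 difference was 0.45 on the log2 scale (SE 0.38, adjusted p = 0.483). Without WT E it was 0.94 (adjusted p = 0.066 by edgeR), and without WT A, B and C it was 0.16. Col11a1 had 3.92, 2.49, 3.13, 7.59, 7.06 and 16.0 CPM in KO A to F and 0.737, 3.08, 4.96, 3.95 and 12.4 CPM in WT A to E. This was the most uneven chain, KO F and WT E each standing above the rest of their group, and its log2 fold change was 0.40 with the widest error (SE 0.62, adjusted p = 0.714).

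Col11a2 ran from 1.14 to 3.72 CPM in KO and from 1.64 to 3.03 CPM in WT, and its fitted difference was 0.14 (SE 0.32, adjusted p = 0.813). Col27a1 was the only chain with a lower fitted level in KO tumours. It had 57.0, 114, 72.3, 99.7, 77.6 and 52.8 CPM in KO A to F and 58.6, 96.7, 165, 99.9 and 71.4 CPM in WT A to E. No KO tumour exceeded WT C, the log2 fold change was -0.32 (SE 0.27, adjusted p = 0.492), and the order of tumours was unlike that of the other chains, since the collagen-rich KO F and WT E were among the lowest.

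**Figure D2:**
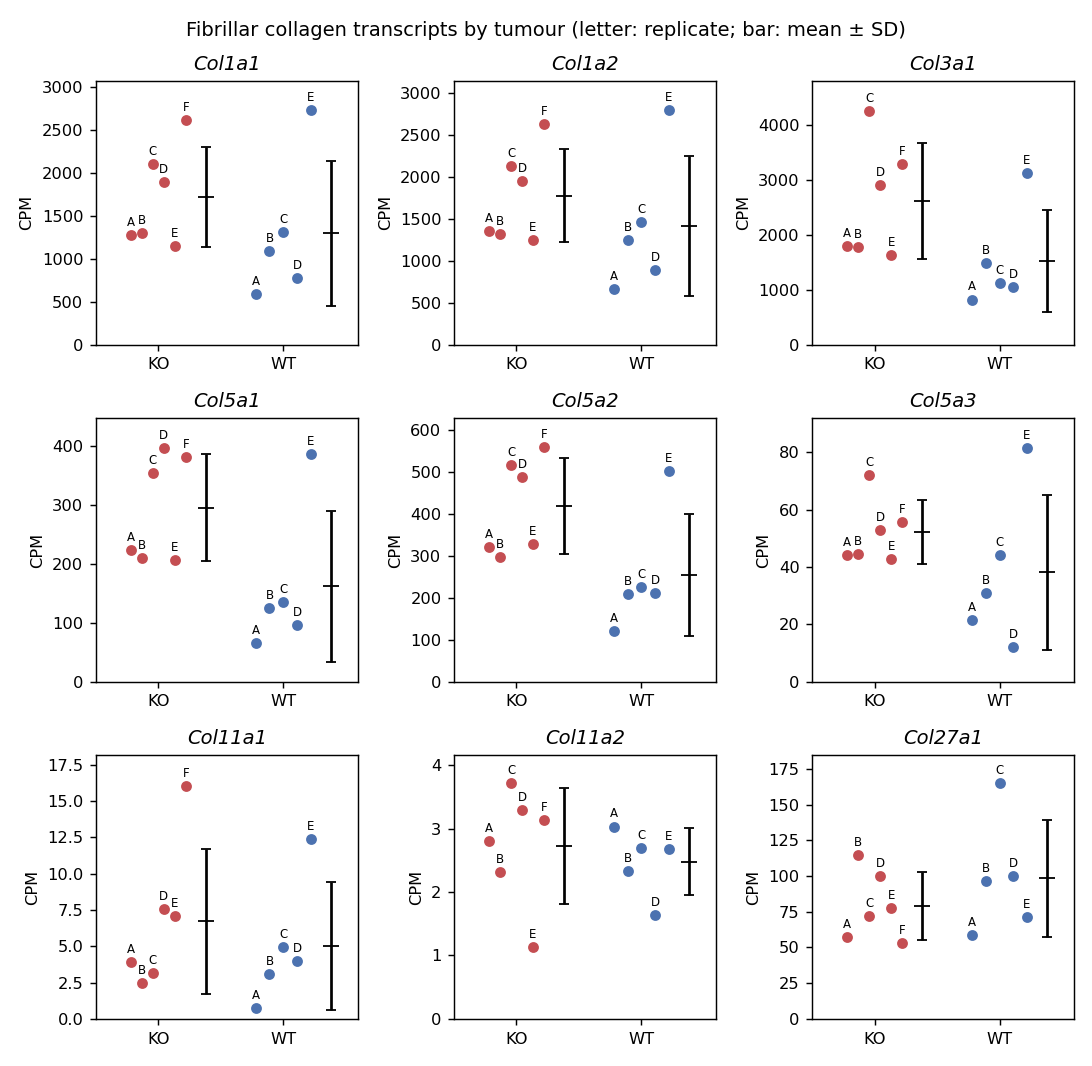
CPM of the 9 tested chains in each tumour (KO red, WT blue, letters are replicates, black bars are mean ± SD of 6 KO and 5 WT tumours, all axes from 0). For Col3a1, Col5a1 and Col5a2 all 6 KO tumours lie above WT A to D, while WT E lies within the KO range.

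The count of chains called depended on 1 library. Without WT E, 3 chains passed, all higher in KO: Col5a1 with a log2 fold change of 1.49 (adjusted p = 0.0275 by edgeR), Col5a2 with 1.13 (0.0299) and Col3a1 with 1.23 (0.0366). Without that tumour 3.63% of 16731 genes were called higher in KO. In the other direction, WT A, B and C, the libraries low in long transcripts, were left out. Only WT D and WT E then stood for WT. Col1a1 was at -0.02 and Col1a2 at -0.06 on the log2 scale, with Col5a1 at 0.30. Those WT tumours differed widely, Col1a1 being at 772 CPM in WT D and 2733 CPM in WT E. With all tumours, removing each tumour's trend with transcript length lowered the Col5a1 log2 fold change to 0.55 (adjusted p = 0.330 by edgeR). It took Col27a1 to -0.77 (adjusted p = 0.139) and moved the median of all genes to -0.11. The cause of the difference between these libraries was not tested.

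**Figure D3:**
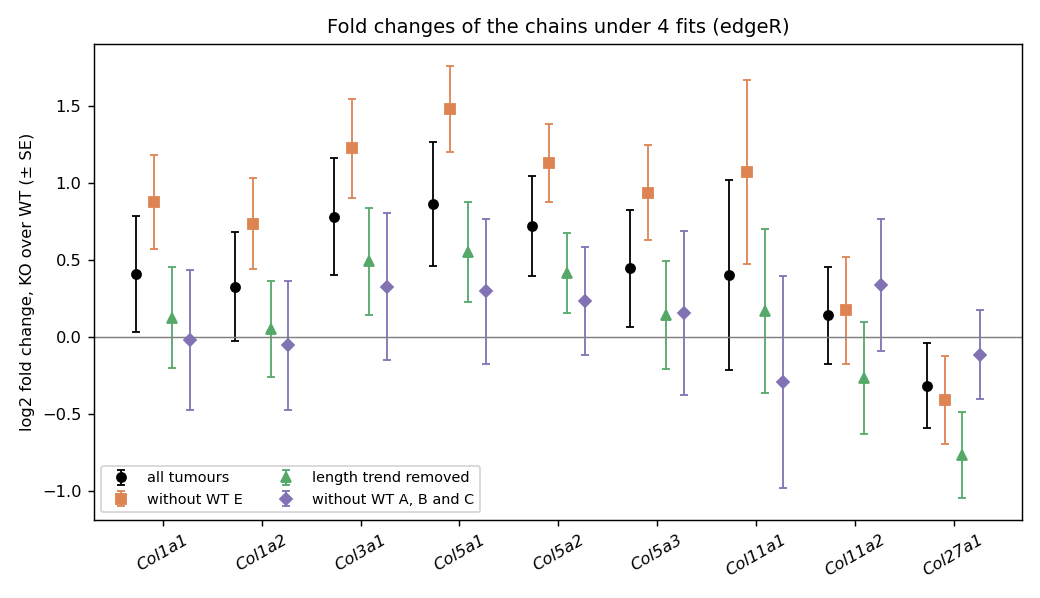
log2 fold change of KO over WT (± SE, edgeR) for the 9 chains, with all tumours, without WT E, after removing each tumour's length trend, and without WT A, B and C. Without WT E, Col5a1, Col3a1 and Col5a2 lie between 1.13 and 1.49. Without WT A, B and C, which leaves WT D and WT E, they lie between 0.23 and 0.33, while Col1a1 and Col1a2 lie near 0.

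No marker of another cell type passed the adjusted threshold with all tumours, but some had an unadjusted p under 0.05. Besides Comp, given above, these included Cela1, 1 of 2 acinar markers tested (log2 fold change -1.96, adjusted p = 0.0938 by edgeR). The 7 smooth muscle and pericyte markers had 0 such p, at a median log2 fold change of -0.32. The 5 endothelial markers also had 0, at a median of 0.34. Of 5 macrophage markers, 4 had such a p and a higher level in KO (Csf1r, Mertk, Itgam and Adgre1), against 8.57% of all genes, and the summed level of the list was 470.0 to 803 CPM in KO against 286 to 496 CPM in WT tumours. All 7 epithelial markers had a lower fitted level in KO, 3 of them at an unadjusted p under 0.05, against 15.5% of all genes. Of 3 adipocyte markers tested, 2 had an unadjusted p under 0.05 and a higher fitted level in KO. These were Plin1, with a log2 fold change of 3.66 (adjusted p = 0.0946 by edgeR), and Adipoq, with 2.89 (adjusted p = 0.135). The third, Cidec, had a lower fitted level in KO, at 8.32 CPM against 13.4 CPM in WT (-0.69, adjusted p = 0.407). The summed adipocyte list ran from 1.05 to 30.9 CPM in KO and from 8.24 to 22.1 CPM in WT tumours. WT E, the collagen-rich WT tumour, also had the highest level of acinar markers, 917 CPM summed, against 6.00 to 251 CPM in KO and 12.2 to 91.7 CPM in WT A to D. Without WT E, Csf1r, Mertk and Itgam passed, with log2 fold changes of 1.01, 0.88 and 1.11 (adjusted p = 0.0306, 0.0311 and 0.0467 by edgeR), as did the cartilage matrix protein Comp (2.12, adjusted p = 0.0279). Without WT A, B and C, all 5 macrophage markers still had a higher fitted level in KO, at a median log2 fold change of 0.50. In that fit 0 of the 5 had an unadjusted p under 0.05, against 1445 of 17605 genes with such a p and a higher level in KO. The part of these cells in the collagen values was not tested. In bulk tissue, fewer cells of a type and less RNA per cell cannot be told apart.

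A ratio between chains in the same library does not depend on its depth or scaling, so the composition of the fibril transcripts was compared by 13 such ratios, each chain having at least 10 counts in every tumour. With 6 and 5 tumours there are 462 assignments to groups, and the smallest p an exact permutation test can give is 0.00216. The Col11a1 to Col1a1 ratio, a measure of the minor to the major chain, did not separate the groups. It was 0.308%, 0.193%, 0.149%, 0.401%, 0.613% and 0.612% of counts in KO A to F and 0.128%, 0.287%, 0.380%, 0.515% and 0.454% in WT A to E. Both groups ran over about the same range, with a log2 difference of 0.06 (exact two-sided permutation p = 0.918).

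The Col5a1 to Col1a1 ratio did separate them. It was 17.5%, 16.2%, 16.8%, 20.9%, 17.9% and 14.6% of counts in KO A to F and 11.2%, 11.5%, 10.4%, 12.4% and 14.1% in WT A to E, with no overlap, although KO F and WT E were close. The log2 difference was 0.54, a ratio 1.45-fold higher in KO tumours, at the smallest p that the design allows (exact permutation p = 0.00216, adjusted p = 0.0281 over the 13 ratios). It was the only 1 of 13 ratios, 7.69%, to pass. As background, the ratio to Col1a1 did not overlap between the groups for 0.185% of the 14039 genes other than Col1a1 with at least 10 counts in every tumour. It lay wholly above WT in KO tumours for 0.0427%, which are 6 genes, Col5a1 among them.

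This ratio was as large without WT E (log2 difference 0.60, adjusted p = 0.0206). Leaving out each of the 11 tumours in turn kept it between 0.48 and 0.60, but in 9 of the 11 cases the adjusted p, 0.0516 to 0.103, did not pass, the exceptions being WT E and WT D (adjusted p = 0.031). Without a KO tumour or a WT tumour, a single ratio at the smallest exact p cannot go below an adjusted p of 0.103 or 0.0619. Without WT A, B and C the log2 difference was 0.38, at the smallest p that 6 and 2 tumours allow (exact permutation p = 0.0357, adjusted p = 0.464). Col5a1 has the longest transcript of the family, at 8406 bases against 5930 for Col1a1. With each tumour's length trend removed, the ratio was 14.1% to 19.8% in KO and 10.1% to 13.5% in WT tumours, still without overlap, but the log2 difference was 0.45 and the adjusted p of 0.0563 (exact permutation p = 0.00433) no longer passed. Col5a1 also shares 99 and 113 exon bases with 2 opposite-strand transcripts, 2810430I11Rik and Gm13372.

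Other ratios within the type I, III and V set did not pass. Type III to type I, as Col3a1 over the sum of Col1a1 and Col1a2, was 62.6% to 100.5% in KO and 40.3% to 65.6% in WT tumours, a log2 difference of 0.36 (exact permutation p = 0.0152, adjusted p = 0.0985). KO F alone of the KO tumours fell inside the WT range. WT C, at 40.3%, stood below the other WT tumours, and the log2 difference was 0.23 without it (exact permutation p = 0.0905, adjusted p = 0.294) and 0.29 without WT A, B and C (exact permutation p = 0.214). The Col1a2 to Col1a1 ratio was 101% to 108% in KO and 103% to 116% in WT tumours, a small log2 difference of -0.10 (exact permutation p = 0.0238, adjusted p = 0.103). WT E, at 103%, was the only WT tumour within the KO range.

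Within type V, Col5a2 to Col5a1 was 124% to 159% in KO and 131% to 220% in WT tumours, a log2 difference of -0.26 (exact permutation p = 0.0584, adjusted p = 0.152). Without WT E this ratio passed (-0.36, adjusted p = 0.0206), as did Col1a2 to Col1a1 (-0.13, adjusted p = 0.0206) and Col27a1 to Col1a1 (-1.25, adjusted p = 0.0464). Without WT A, B and C, Col5a2 to Col5a1 was at -0.24 (exact permutation p = 0.25) and Col1a2 to Col1a1 at -0.07 (exact permutation p = 0.179). The Col27a1 to Col1a1 ratio in all tumours was 2.02% to 8.82% in KO and 2.61% to 12.9% in WT tumours, WT E being the low one, at a log2 difference of -0.83 (exact permutation p = 0.141, adjusted p = 0.261), and without WT A, B and C it was -0.33 (exact permutation p = 0.679).

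**Figure D4:**
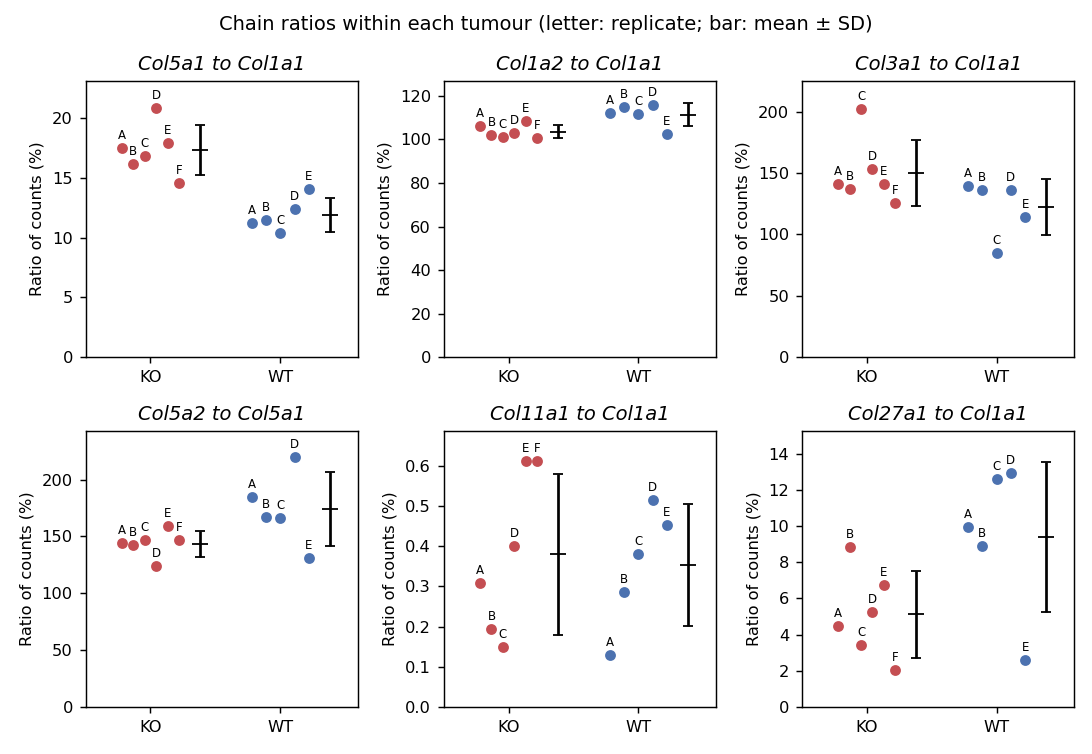
Ratio of counts between 2 chains, in percent, in each tumour (KO red, WT blue, letters are replicates, black bars are mean ± SD of 6 KO and 5 WT tumours, all axes from 0). Col5a1 to Col1a1 runs from 14.6% to 20.9% in KO and from 10.4% to 14.1% in WT tumours, and in the other 5 ratios the groups overlap.

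Across the 11 tumours the chains varied together to very different degrees. Against Col1a1 on the log2(CPM + 1) scale, Col1a2 had a Pearson r of 0.998 and a Spearman rho of 0.991 (permutation p = 1e-05 for both, the smallest that 100000 permutations can give, adjusted p = 8e-05 over the 8 chains compared). Without WT A and WT E, the tumours farthest from the median, r was 0.996. Col5a1 (r = 0.945, rho = 0.882), Col5a2 (0.940, 0.873), Col3a1 (0.920, 0.864) and Col5a3 (0.876, 0.973) followed, with adjusted permutation p for r of 0.000608 or less, and without those 2 tumours their r was 0.836 to 0.911.

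Col11a1 was looser (r = 0.785, rho = 0.655, adjusted permutation p = 0.00615 and 0.0443), and its r was 0.556 without those tumours. Col11a2 (r = 0.428, rho = 0.464, adjusted permutation p = 0.218 and 0.176, r = 0.745 without those tumours) and Col27a1 (r = -0.155, rho = -0.182, adjusted permutation p = 0.649 and 0.594) did not pass. Within groups the r of Col27a1 was -0.349 in KO and 0.132 in WT tumours, and that of Col5a1 was 0.932 and 0.989. These values share the library scaling and the length trend.

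Of the chains that varied together, promoters were found for Col1a2, Col3a1, Col5a1 and Col5a3, and their GC content ran from 37.7% to 75.0%. RefSeq promoters, 250 bases before to 50 after the start, were matched for 7 chains and not for Col1a1, Col2a1 and Col5a2. The 3 below are from the chains with the highest Pearson r with Col1a1 among those matched (by Spearman rho Col5a3 was closer than Col3a1 and Col5a1), with any CCAAT box, on either strand, in capitals.
Col1a2 (chr6:4505368-4505667, + strand, GRCm38.p6): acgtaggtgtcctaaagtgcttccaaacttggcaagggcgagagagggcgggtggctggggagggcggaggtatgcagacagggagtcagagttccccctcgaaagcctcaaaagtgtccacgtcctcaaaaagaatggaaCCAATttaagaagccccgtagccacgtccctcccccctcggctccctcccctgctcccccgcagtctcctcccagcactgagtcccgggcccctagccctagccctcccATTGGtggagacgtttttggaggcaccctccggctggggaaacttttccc
Col3a1 (chr1:45311288-45311587, + strand, GRCm38.p6): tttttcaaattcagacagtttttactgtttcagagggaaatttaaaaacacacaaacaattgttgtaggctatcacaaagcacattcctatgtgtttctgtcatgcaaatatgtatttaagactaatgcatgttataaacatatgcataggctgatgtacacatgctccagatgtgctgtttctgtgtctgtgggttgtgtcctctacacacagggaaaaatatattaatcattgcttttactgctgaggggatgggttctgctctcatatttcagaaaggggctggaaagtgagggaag
Col5a1 (chr2:27886175-27886474, + strand, GRCm38.p6): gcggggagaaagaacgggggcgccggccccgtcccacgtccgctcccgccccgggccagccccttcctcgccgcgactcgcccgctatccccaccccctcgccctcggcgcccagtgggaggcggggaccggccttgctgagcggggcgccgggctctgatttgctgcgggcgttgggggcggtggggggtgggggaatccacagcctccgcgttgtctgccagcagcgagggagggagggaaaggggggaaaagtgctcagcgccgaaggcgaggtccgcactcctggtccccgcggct

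Their GC content was 61.0% in Col1a2, 37.7% in Col3a1 and 75.0% in Col5a1, against a median of 52.7% over 27025 promoters. CCAAT, on either strand (ATTGG), occurred in 3 of the 7 (Col1a2, Col5a3 and Col11a1) and in 37.9% of all promoters. GGGCGG, the GC box (CCGCCC on the other strand), occurred in 6 of 7, all but Col3a1, and in 35.9% of all. GGAATG was found in 1 of 7 (14.6% of all) and TATAAA in 2 of 7 (14.2% of all). These are letter matches in 1 window and say nothing of binding.

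Taken as a single quantity, Col1a1, Col1a2 and Col3a1 made up 0.453%, 0.463%, 0.887%, 0.730%, 0.430% and 0.883% of all counts in KO A to F and 0.191%, 0.281%, 0.364%, 0.293% and 0.944% in WT A to E. All 6 KO tumours were above WT A to D and below WT E. The log2 difference was 0.79 (exact permutation p = 0.0909), 1.15 without WT E (exact permutation p = 0.00952) and 0.21 without WT A, B and C (exact permutation p = 0.607).

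To set the chains against other transcripts of the cells that make them, their mean log2(CPM + 1) was compared with that of 9 fibroblast markers (Pdgfra, Pdgfrb, Thy1, Pdpn, Lum, Dcn, Fap, Fbln1 and Fbln2). Summed fibroblast markers were 1070 to 1980 CPM in KO and 759 to 1780 CPM in WT tumours, with none at 0. The fibroblast mean itself was 0.33 higher in KO on the log2 scale (exact permutation p = 0.234) and 1 of 9 markers, Fbln1, had an unadjusted p under 0.05. The major chains relative to these markers were higher by 0.30 (4.44 ± 0.201 in KO, n = 6, 4.14 ± 0.388 in WT, n = 5, exact permutation p = 0.141). That difference was 0.44 without WT E (exact permutation p = 0.0143), and 0.07 both without WT A, B and C and with the length trend removed.

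**Figure D5:**
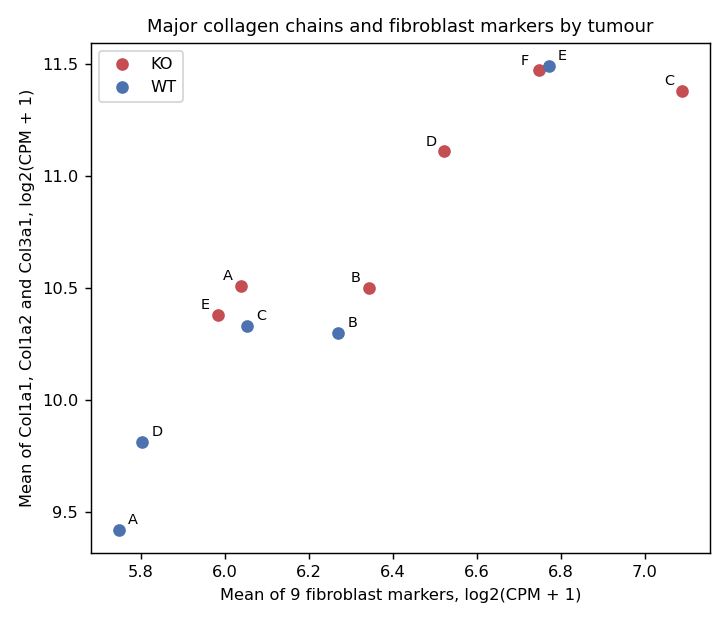
Mean log2(CPM + 1) of Col1a1, Col1a2 and Col3a1 (vertical axis) against that of 9 fibroblast markers (horizontal axis) in each tumour, KO red and WT blue, with replicate letters. WT A, at 9.42 on the vertical axis, is lowest on both, and WT E, at 11.5, lies with KO C and KO F.

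Of 67 genes that fold, export, trim, crosslink, bind and degrade these collagens, 52 had a higher fitted level in KO tumours, against 7943 of all 16536 genes. Of the 67, 0 passed the adjusted test by edgeR, while 14 had an unadjusted p under 0.05, all of them higher. Without WT E, 11 passed, all higher in KO (Plod1, P3h1, Sec24d, Adamts2, Bmp1, Tll1, Loxl3, Thbs2, Tnxb, Mmp2 and Mmp8), against the 3.63% of all genes given above. Without WT A, B and C, 44 of the 67 had a higher fitted level, against 8980 of 17605 genes. At an unadjusted p under 0.05 there were 3 higher and 5 lower ones, against 1445 and 1586 of all genes. In this fit 1 passed, Col14a1, at -1.39 on the log2 scale (adjusted p = 0.0487 by edgeR), against 7 of all genes. With the length trend removed the median of the 67 went from 0.31 to 0.15 (0.145), and 1 passed, Mmp8 (adjusted p = 0.0376 by edgeR), against 117 of all 16536 genes. The values that follow are from all tumours. Of 18 genes of folding and modification, 12 had a higher fitted level in KO tumours and 2 had an unadjusted p under 0.05, at a median log2 fold change of 0.14 (over all genes, 8.57% had such a p and a higher level in KO, and the median was -0.03). Plod1, a lysyl hydroxylase, averaged 60.9 ± 11.2 CPM (SD) in the 6 KO against 40.4 ± 12.1 CPM in the 5 WT tumours (log2 fold change 0.59, SE 0.21, adjusted p = 0.124), and P3h1, a prolyl 3-hydroxylase, at 47.4 ± 6.19 and 33.7 ± 10.9 CPM (0.49, SE 0.20, adjusted p = 0.158). Serpinh1, the collagen chaperone HSP47, was at 445 ± 107 and 370.0 ± 115 CPM (0.26, SE 0.23).

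Of the 8 genes of procollagen export, 1 had an unadjusted p under 0.05: Sec24d, a cargo adaptor of the COPII coat, with a log2 fold change of 0.55 (SE 0.23, adjusted p = 0.179). In propeptide cleavage, 6 of 7 genes tested had a higher fitted level (median 0.44) and 2 had an unadjusted p under 0.05. Tll1, a proteinase of the BMP1 family that removes the C-propeptide, averaged 6.10 ± 3.67 CPM in KO against 1.57 ± 1.07 CPM in WT (log2 fold change 1.95, SE 0.52, adjusted p = 0.0909). Bmp1 itself was at 226 ± 56.3 and 145 ± 53.6 CPM (0.64, SE 0.25, adjusted p = 0.156).

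All 5 lysyl oxidases, the enzymes that crosslink fibrils, had a higher fitted level in KO (median 0.40), and Loxl3 had an unadjusted p under 0.05 (log2 fold change 0.68, SE 0.25, adjusted p = 0.129). Of 12 fibril-binding proteins tested, 11 had a higher fitted level (median 0.55). Thbs2, a matricellular thrombospondin, had a log2 fold change of 0.95 (SE 0.37, adjusted p = 0.153), and Fn1, fibronectin, on which collagen fibrils are assembled, one of 0.77 (SE 0.35, adjusted p = 0.198).

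Among 10 receptors tested, 7 had a higher fitted level (median 0.34) and 3 had an unadjusted p under 0.05, but without WT A, B and C only 4 were higher, at a median of -0.25. Lair1, an inhibitory collagen receptor of leukocytes, averaged 55.9 ± 17.6 CPM in KO against 34.4 ± 5.65 CPM in WT (log2 fold change 0.70, SE 0.21, adjusted p = 0.0991). Ddr1, an epithelial collagen receptor kinase, had 0.59 (SE 0.19, adjusted p = 0.108) and Itgb1, the beta subunit of collagen-binding integrins, 0.52 (SE 0.23, adjusted p = 0.196).

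Of 7 collagenases and gelatinases tested, 5 had a higher fitted level (median 0.46) and 3 had an unadjusted p under 0.05. Mmp8, the neutrophil collagenase, had the largest difference of these lists, 22.5 ± 12.8 CPM in KO against 2.59 ± 1.23 CPM in WT (log2 fold change 3.11, SE 0.51, adjusted p = 0.0607). The gelatinases Mmp2 (1.03, SE 0.39, adjusted p = 0.142) and Mmp9 (0.95, SE 0.37, adjusted p = 0.150) followed.

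The 6 genes outside the family whose log2 CPM over the 11 tumours was most like the mean z score of Col1a1, Col1a2 and Col3a1, of 14888 genes with at least 1 CPM on average, were Cpz (Pearson r = 0.963), Slc2a10 (0.951), Ssc5d (0.947), Rgma (0.946), Adamts2 (0.945) and Aebp1 (0.941). This is a description of the pattern over these tumours.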

How the data were processed

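RNA of a portion of each of the 11 tumours was sequenced from stranded libraries. Per the labels and the study's methods, the authors trimmed reads with Trimmomatic, aligned them to mm10 with HISAT2 2.1.0 and counted them per gene with HTSeq 0.11.2, after demultiplexing with bcl2fastq 2.19. They deposited raw counts and normalised counts. The deposited normalised signal equals the raw counts divided by 1 factor per tumour, from 0.514 to 1.42, and was used only as an alternative.

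Raw counts were fitted with edgeR 4.0.16 (R 4.3.3, TMM scaling, filterByExpr, quasi-likelihood F-test, Benjamini-Hochberg over 16536 genes), with DESeq2 1.42.0 as an alternative. CPM values are scaled by TMM. Ratios had 0.5 counts added, scores 1 CPM. Exact permutation tests were two-sided and ran in Python 3.11.15 with scipy 1.17.1. Symbols, lengths and 3′ UTRs came from GENCODE M21 and promoters and microRNAs from RefSeq, both GRCm38. The edgeR script was tested on simulated data. The labels do not state that each tumour came from its own mouse, but the study's methods count animals as n in its mouse experiments. Replicates were taken as separate animals on that basis.

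Named genes were the 10 chains, from each pathway list the genes with an unadjusted p under 0.05 (at most 4, or the 2 smallest p where none passed), and the 6 genes most like the major chains. Serpinh1, Acan, Tnxb, Col14a1, the markers and the genes sharing exon bases were named outside that rule, after their values were seen. The members and lists were chosen with earlier results of these data known. Alternatives with length and GC trends in the ratios, lists without WT E or WT A, B and C, and levels per union of exons were added after seeing the data.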

Additional observations from a re-analysis of the deposited data

Results flagged for a closer look

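Of 48 groups of values examined for a sample far from the others, where chance gives about 2.40, 1 was flagged. The log2 ratio of Col27a1 to Col1a1 was -5.26 in WT E, against -3.49 to -2.95 in WT A to D. In WT E the Col1a1 count was 92823 and the Col27a1 count 2424. The cause was not tested.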

How the results depend on the processing

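The number of chains called was 0 in all alternatives run except without WT replicate E, where it was 3 (leaving out a tumour: 0 to 3). The 1 chain ratio past the threshold became 0 with the replicate letter as a block, without WT A, B and C, with the length offset and with the length and GC offset, and 0 to 4 when 1 tumour was left out, the values above 1 being 4 without WT E and 3 without WT D. With 1 KO or 1 WT tumour left out, a lone ratio at the smallest p cannot go below an adjusted p of 0.103 or 0.0619. The log2 difference of Col11a1 to Col1a1 was -0.12 with the block, -0.54 without WT A, B and C, -0.01 (-0.00504) with the length offset, and -0.27 to 0.29 when 1 tumour was left out. The share of type I and III collagen ranged from 0.57 to 1.15 and their level relative to fibroblast markers from 0.18 to 0.44 when 1 tumour was left out, both passing only without WT E, and without WT A, B and C they were 0.21 (0.214, exact permutation p = 0.607) and 0.07 (0.0741). Signs reversed for Col11a1 (-0.291) without WT A, B and C and without KO F (-0.0667 to 1.07 when 1 tumour was left out), for Col1a1 (-0.0213) and Col1a2 (-0.0559) without WT A, B and C, for Col11a2 with the length offset (-0.27) and the length and GC offset (-0.28), for the ratios Col11a2 to Col1a1 (0.11) and Col5a3 to Col5a1 (0.15) without WT A, B and C, for Col11a1 to Col5a2 without KO C (-0.555 to 0.0102 when 1 tumour was left out) and for Col5a3 to Col1a1 without WT D (-0.0454 to 0.271). The causes were not tested.

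The 2 groups share 5 replicate letters, and the deviations of tumours with the same letter had correlations of -0.172 to 0.163. These were not set against tumours of different letters, and the labels do not say whether the letters pair tumours. The tumours were therefore not taken as paired in the main tests. With the block the smallest exact p over 5 letters is 0.0625. With the block, edgeR called 0 chains and 9 genes of all tested, against 3 without it.

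The numbers of genes called were also 1495 with DESeq2, 45 with no expression filter, 32 without KO F, 854 without WT D (203 higher and 651 lower in KO), 1856 without WT E (608 higher and 1248 lower), 117 with the length offset and 132 with the length and GC offset. Depth did not limit the major chains. It limited Col2a1, and Col11a1 and Col11a2, whose lowest counts were 17 and 28.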

Other observations

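The elastin gene Eln, named after its values were seen, was another gene whose ratio to Col1a1 lay wholly higher in KO than in WT tumours. Its KO ratios ran from 6.71% to 27.7% of counts, above a WT range of 1.05% to 6.29%.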
